A study of Homo sapiens with 9 samples.

Results

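The comparison described here sets 3 RNA-seq libraries with the guide RNA called TRIDENT gRNA1 against 3 libraries with a non-targeting control guide, chosen by their titles, which is 6 of the 9 libraries of the series. All were made from H1975 cells, an established line of human lung cancer with mutant EGFR, with a repressor (TRE-dCas9-KRAB) that doxycycline switches on. Both groups shared the repressor, 4 ug/ml of doxycycline for 72 hours, serum free of tetracycline, and selection with G418 and puromycin, so that they differed only in the guide as far as the labels say. A further group of 3 libraries had another guide against TRIDENT, gRNA2, and is used here only where gRNA1 is set against it. Of 56823 genes with a value, 19658 had enough reads to be tested and are the genes described. A gene can pass that filter through the group in which it is high, so these are the genes tested and not all genes.

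CRISPR interference uses a Cas9 that cannot cut, fused to the KRAB domain, which recruits repressive chromatin to the site that the guide RNA matches. TRIDENT is a long noncoding RNA that the series title links to EGFR signalling, phosphorylated TRIM28 and the repair of DNA damage. In an epithelial cancer line such as H1975, proteins that are secreted or sit on the cell surface carry much of the exchange with the surroundings: growth factors and their binding proteins, guidance cues such as semaphorins and slits, matrix proteins and proteases, adhesion molecules, receptors and transporters. Their precursors all pass through the endoplasmic reticulum, which is entered by way of hydrophobic stretches in the protein chain.

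Each library held between 16918432 and 26466536 reads over the 9 libraries. Mitochondrial genes took 5.37% to 5.68% of the reads in the controls and 5.72% to 6.61% with gRNA1. The 7 epithelial markers were summed to between 3207 and 3465 CPM in the controls and between 3122 and 3223 CPM with gRNA1, and all 7 were present in every library. CPM are reads divided by the size of the library, which is unscaled for the sums of markers and scaled elsewhere. Of 5 blood markers, HBB was at 0 in all 6 libraries and the sum ran from 6.25 to 7.28 CPM in the controls and from 6.70 to 7.55 with gRNA1. Of 5 fibroblast markers, COL3A1 and LUM were at 0 in all 6 libraries and the sum ran from 13.8 to 16.1 and from 13.5 to 17.4 CPM. The 4 endothelial markers summed to between 3.26 and 3.78 CPM in the controls and between 5.53 and 6.27 with gRNA1, with CDH5 as the marker among them that changed. The labels do not state that the libraries of a group come from separate cultures, so the p-values weigh differences only against the variation among these libraries, and that variation may be technical. In libraries of whole cultures, fewer cells of a kind and less RNA per cell cannot be told apart.

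The RNA matched to the target did not pass the test. It is listed by RefSeq as TRIDDENT, with TRIDENT as a synonym. RefSeq gives that synonym for FOXM1 too, and no guide sequence is given in the sources used here to check the match. The estimated reads of its gene came to 2.62, 2.28 and 2.85 CPM in the controls and to 1.77, 2.09 and 1.87 CPM with gRNA1. All 3 libraries with gRNA1 lay below all 3 controls, at 0.745-fold (95% interval 0.588 to 0.943, edgeR adjusted p = 0.128). The start of its RefSeq record lies in the promoter window below, at chr16:3950395-3950694 on the minus strand of GRCh38.p14, which reaches from 250 bases before the start to 50 after it. The window is shown because a repressor of this kind acts near the start of a transcript, but where in it gRNA1 binds is not given in the sources used here.
TRIDDENT: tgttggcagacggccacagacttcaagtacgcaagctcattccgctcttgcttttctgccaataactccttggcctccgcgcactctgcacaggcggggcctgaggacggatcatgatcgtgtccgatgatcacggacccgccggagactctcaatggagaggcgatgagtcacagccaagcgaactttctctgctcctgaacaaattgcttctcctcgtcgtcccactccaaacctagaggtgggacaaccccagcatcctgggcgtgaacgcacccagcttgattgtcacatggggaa
The window holds 18 CpG dinucleotides and no TATAAA on either strand.

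With the main scaling (TMM), gRNA1 went across all genes with a small set of large increases and a wide set of small decreases. Of 19658 genes tested, 1391 were called (7.08%) by edgeR's quasi-likelihood test at a Benjamini-Hochberg adjusted p of 0.05, of which 687 were higher (3.49%) and 704 lower (3.58%) with gRNA1. In 1387 of the 1391 the 3 libraries of 1 group all lay beyond the 3 of the other. Genes called with 3 libraries a group nearly always separate in this way, so the count adds no support to the calls. The same share over all genes tested is not given here. Of the 1391 calls, 97 were of at least 2-fold, 89 of them higher and 8 lower, whereas 826 were within 1.25-fold. The even split between the directions rests on the scaling. With each library scaled by its median gene, 865 genes were higher and 398 lower, and with the genes of each chromosome scaled apart the split was 810 to 390. Both scalings were chosen after the data were seen, and they moved the median of all genes from near 0 to 0.0284 and 0.0264 on the log2 scale. Of the 1391 genes, 391 also differed between gRNA1 and gRNA2 in the same fit.

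The direction of the calls went with the level of the gene. Among the 5239 genes under a log2 CPM of 1, 63 rose and 10 fell, and among the 5774 genes from 1 to 4 the counts were 263 and 80. Between 4 and 7 the order was turned, with 292 higher and 412 lower of 7109, and at 7 or more it was 69 and 202 of 1536. The median change of all genes tested ran the same way, from 0.14 on the log2 scale in the lowest class to 0.03, then −0.04 and −0.05. The smallest fold that was called also depends on the level: 1.61 in the lowest class and 1.07 in the highest. A small change in a weakly expressed gene was therefore not detectable at this depth.

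**Figure D1:**
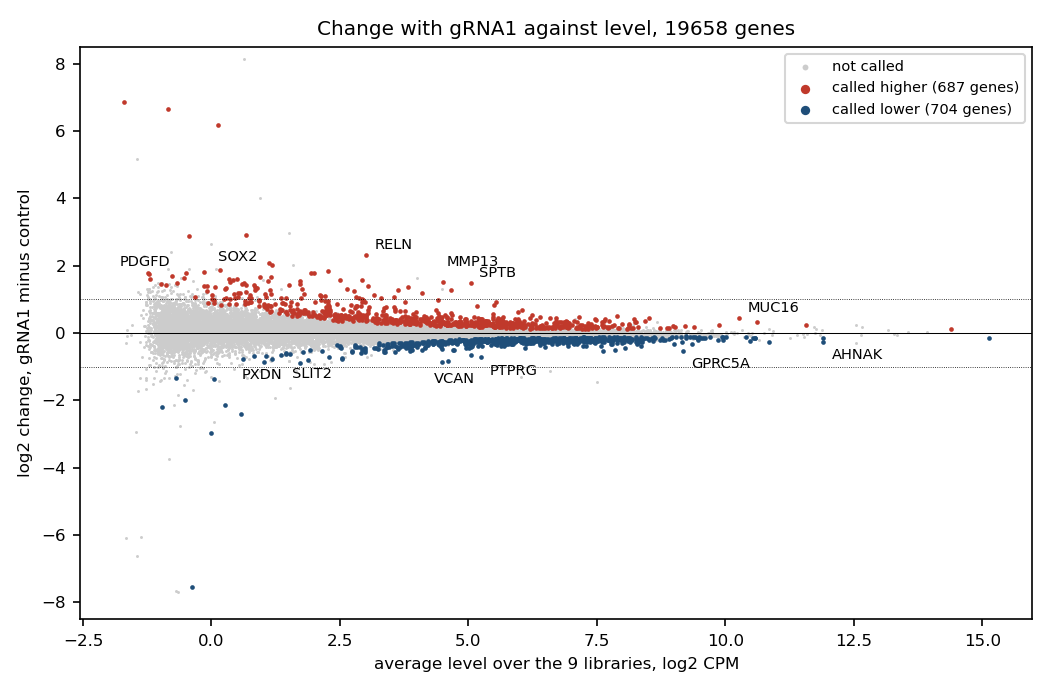
Each point is 1 of 19658 genes, with its average level (log2 CPM over the 9 libraries) on the x axis and its fitted log2 change, gRNA1 minus control, on the y axis. Red points are the 687 genes called higher, blue points the 704 called lower, and dotted lines mark 2-fold; the large increases lie at low and middle levels, and the dense band of small decreases at high levels.

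At the very top of the range the named changes were small. MUC16, a very large membrane-bound mucin also known as CA125, stood at 1021, 1014 and 934 CPM in the controls and at 1314, 1339 and 1406 CPM with gRNA1, a rise of 1.37-fold (95% interval 1.29 to 1.45). AHNAK, a giant scaffold protein under the plasma membrane, went from 4273, 4249 and 4430 CPM to 3614, 3576 and 3495 CPM, 0.825-fold (0.794 to 0.857). Neither pair of groups overlapped. HELLPAR, a long noncoding RNA, was at 822, 843 and 828 CPM and at 1024, 1008 and 935 CPM, 1.19-fold. Among the other genes with the highest levels that were called, MT-CO3 and NEAT1 were higher at 1.18-fold and 1.08-fold, and MALAT1, ACTB and MYOF were lower at 0.902-fold, 0.906-fold and 0.901-fold. The MT-CO3 call ended when the genes of each chromosome were scaled apart. The NEAT1 call ended with an offset for the average transcript length in each library (the length offset, adjusted p = 0.391) and without gRNA1 replicate 1 or 2 (up to 0.0631), and the MYOF call when chromosomes were scaled apart and without control replicate 2 or gRNA1 replicate 2 (up to 0.0503). ACTB was not called without control replicate 1 or gRNA1 replicate 1 or 2 (up to 0.0768) or with median scaling, nor MALAT1 without control replicate 2 or 3 or gRNA1 replicate 1 or 2 (up to 0.116) or with either added scaling. MALAT1 and NEAT1 are long noncoding RNAs of the nucleus, ACTB is cytoplasmic actin and MYOF is a membrane repair protein.

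Decreases were spread unevenly over the chromosomes. Over the 10759 genes with a log2 CPM of at least 3, 4.28% rose, 6.16% fell, and the median change was −0.03 on the log2 scale. On chromosome 11, 98 of 609 genes fell (16.1%) and 11 rose, the median change was −0.12, and 85.4% of the genes were below 0. Chromosome 9 had 64 lower and 9 higher of 452, and chromosome 3 had 84 lower and 15 higher of 628, with medians of −0.09 each. Added up, chromosomes 3, 9 and 11 held 246 lower calls among 1689 genes (14.6%), against 417 of 9070 (4.6%) elsewhere. The rest was not even, as chromosome 10 had 49 lower (11.4%) and 8 higher of 429. Chromosomes 3, 9 and 11 were picked after the values were seen, so the comparison describes these libraries and carries no test. The opposite side was held by chromosome 16 with 32 higher and 4 lower of 493, chromosome 14 with 29 and 8 of 381, and chromosome 2 with 62 and 24 of 707.

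The shift of a chromosome could be seen in single libraries. The median gene of chromosome 11, relative to the mean of the controls, was at 0.02, −0.01 and −0.01 on the log2 scale in the controls and at −0.12, −0.12 and −0.10 with gRNA1. For chromosome 9 the controls lay at 0.009, −0.006 and −0.002 and gRNA1 at −0.096, −0.092 and −0.083. For chromosome 3 the controls lay at −0.013, 0.009 and 0.004 and gRNA1 at −0.074, −0.077 and −0.102. In all 3 cases the groups did not overlap. With gRNA2 the same medians were −0.05, −0.08 and −0.09 for chromosome 11, below all 3 controls and above all 3 libraries with gRNA1. The lowering was seen along chromosomes 3, 9 and 11, in windows of 20 Mb that held at least 20 genes. All 9 such windows on chromosome 3, all 6 on chromosome 9 and all 7 on chromosome 11 had a median below that of all genes. So did 5 of 5 on chromosome 17 and 6 of 7 on chromosome 10, whereas 0 of 5 did on chromosomes 14 and 16. On chromosome 14 the controls lay at −0.010, 0.000 and 0.006 and gRNA1 at 0.033, 0.035 and 0.021, without overlap, and on chromosomes 2 and 16 the groups overlapped. Windows also differed within other chromosomes. On chromosome 1, that from 140 to 160 Mb had a median of 0.11 (34 higher, 2 lower of 166 genes). The window from 0 to 20 Mb there was at −0.05 (1 and 4 of 138). On chromosome 12, the window from 0 to 20 Mb was at −0.12 (2 and 27 of 91), and that from 40 to 60 Mb at −0.02 (5 and 4 of 166). These windows were picked after the values were seen. What moves chromosomes or parts of them was not tested. A gene there with a small change cannot be told apart from its chromosome or region.

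**Figure D2:**
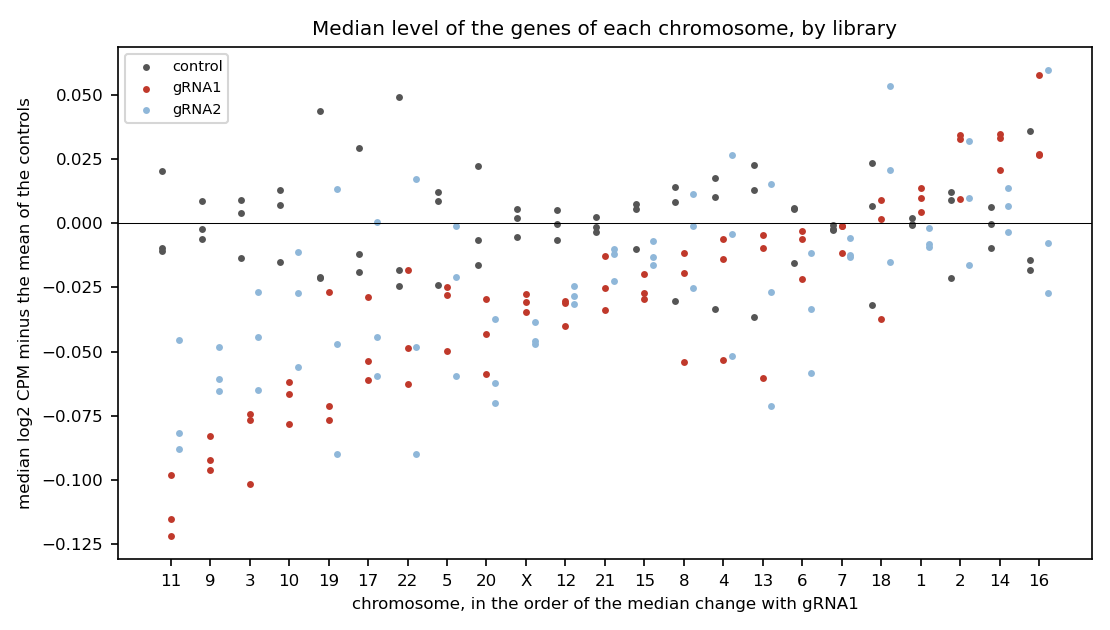
The x axis lists the chromosomes in the order of their median change with gRNA1, and the y axis gives the median, over genes with a log2 CPM of at least 3, of log2 CPM minus the mean of the 3 controls; each point is 1 library. On chromosomes 11, 9 and 3 the red points of gRNA1 lie below all grey control points, with the blue points of gRNA2 between them or beside them.

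Among genes whose proteins have a hydrophobic start or stretch, the share of decreases ran from 5.79% to 9.33% by class, beside 3.66% for proteins with neither. Protein-coding genes were sorted by the hydrophobic stretches of the translated reading frame: secreted-like (a hydrophobic start and no later stretch), 1 stretch, several stretches, and neither. Of all 14018 protein-coding genes tested, 8.55% were called, 3.67% higher and 4.89% lower. Among the 1082 secreted-like genes 101 fell (9.33%) and 46 rose (4.25%), and among the 1738 with several stretches 128 fell (7.36%) and 87 rose. Of the 2261 genes with 1 stretch 131 fell (5.79%), and within these the 752 that also have a hydrophobic start, the layout of many receptors, had 8.51% lower. The 8724 genes with neither feature had 3.66% lower and 3.21% higher. Which direction prevails depends on the scaling: with median scaling 3.36% of the genes with 1 stretch fell and 5.13% rose, and 4.2% and 5.98% of those with several stretches, while scaling within each chromosome gave 3.18% and 4.78%, and 4.49% and 5.58%. Among the secreted-like genes 6.19% fell and 5.36% rose with median scaling, and with neither feature 1.93% and 4.36%. These shares are a description, with no test of their difference. The classes are coarse: 57.8% of the genes in the families listed as secreted fell in the secreted-like class, and 75.4% of those listed as intracellular fell in the class with neither.

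At a log2 CPM of 1 or more the class with neither had the lowest share of lower calls within genes of like level, while under 1 its share, 0.356%, was above the 0.271% of genes with 1 stretch and the 0.339% of those with several. From a log2 CPM of 4 to 7, 15.3% of the secreted-like genes, 9.68% of those with several stretches and 6.53% of those with 1 stretch fell, against 4.44% with neither. At 7 or more the shares were 25%, 28.6%, 19.8% and 8.14%. The shares called higher from 4 to 7 were 3.96%, 5.26%, 3.88% and 2.96%. Median scaling lowered the shares between 4 and 7 to 10.1%, 5.53%, 3.47% and 2.35%, and scaling within each chromosome gave 9.90%, 5.95%, 3.57% and 2.01%. The length offset left 5.20%, 2.07%, 1.94% and 1.29%.

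**Figure D3:**
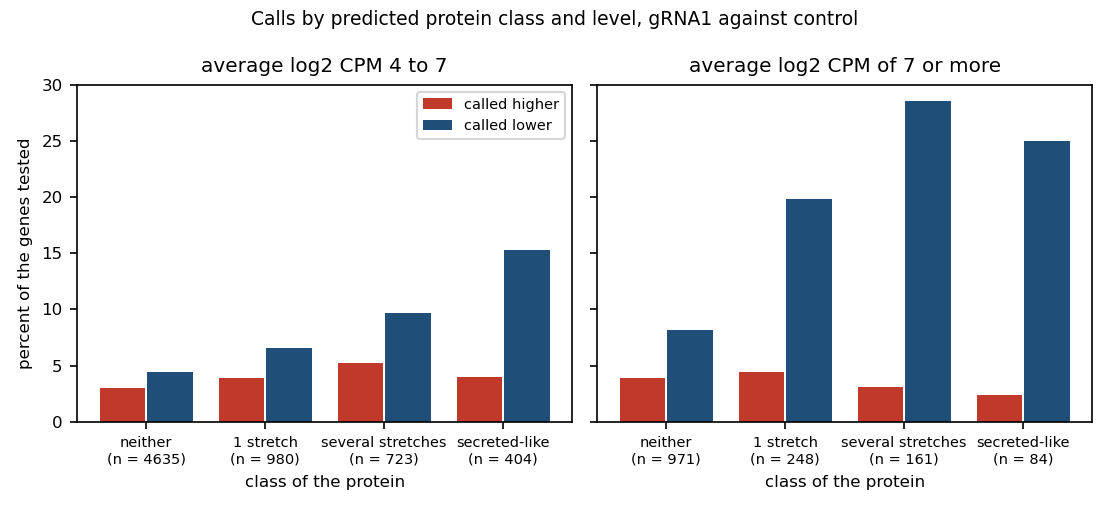
Bars give the percent of the genes tested that were called higher (red) or lower (blue) with gRNA1, for 4 classes of protein and 2 ranges of average level; n is the number of genes tested in each class. The blue bars are taller for classes with hydrophobic stretches than for proteins with neither, while the red bars stay between 2.38% and 5.26%.

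The insulin-like growth factor binding proteins and the related CCN proteins had the largest share of calls among the families with at least 8 genes tested. The family counts here and below stand beside 3.67% higher and 4.89% lower among all protein-coding genes tested. The families were listed with earlier results of these data known, so a share above these values is a description and carries no support of its own. IGFBPs bind the IGF hormones outside the cell and set how much reaches the receptor. Of 11 genes tested, 4 rose and 1 fell, and these counts were the same with median scaling, scaling within chromosomes and the length offset. IGFBP2 was at 5.40, 4.195 and 4.598 CPM in the controls and at 11.9, 10.6 and 14.7 CPM with gRNA1 (2.63-fold, 95% interval 2.13 to 3.25, edgeR adjusted p = 5.03e-05). IGFBP3 went from 6.53, 5.87 and 6.12 CPM to 10.3, 10.4 and 11.8 CPM (1.76-fold, 1.45 to 2.12). IGFBP5 was the lowest of the 3, at 0.428, 0.855 and 0.736 CPM and at 1.97, 2.01 and 1.92 CPM (2.85-fold, 1.96 to 4.14). No library of 1 group reached the other for any of them. With gRNA2 the means were 7.37, 5.59 and 0.938 CPM, and each of the 3 genes differed between the guides (adjusted p = 0.00411, 0.000428 and 0.0144). IGFBP4 and IGFBP6 were tested and not called, at 0.95-fold and 0.92-fold. CCN2 rose 1.38-fold and CCN1 fell to 0.827-fold; both code for matrix-associated proteins known as targets of YAP signalling.

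Guidance cues of the nervous system, which also steer epithelial and vessel cells, moved in both directions. Of 26 semaphorins, netrins, slits and related genes, 3 rose and 5 fell, where 8.55% of all protein-coding genes were called. SLIT2, the ligand of the ROBO receptors, stood at 6.90, 7.25 and 6.76 CPM in the controls and at 3.99, 3.63 and 4.68 CPM with gRNA1 (0.586-fold, 95% interval 0.497 to 0.692). SEMA7A, a semaphorin anchored to the membrane by a lipid, went from 31.2, 28.7 and 29.6 CPM to 20.2, 21.2 and 21.5 CPM (0.702-fold, 0.626 to 0.788). Both were also lower with gRNA1 than with gRNA2 (adjusted p = 0.00818 and 0.00882). SEMA6A fell to 0.803-fold, a call that ended with the length offset (adjusted p = 0.159). RELN, the secreted glycoprotein reelin, rose the most of all genes in the group, at 2.46, 2.00 and 2.99 CPM and at 11.3, 13.1 and 12.5 CPM. Its receptors VLDLR and LRP8, named here for their role and after their values were seen, were not called, at 0.92-fold and 0.90-fold.

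On the receiving side, the plexins, neuropilins, robos and UNC5 receptors had 2 higher and 3 lower of 18, and 1 and 0 with the length offset. NRP2, a co-receptor for semaphorins and for vascular growth factors, was at 38.4, 37.2 and 35.2 CPM in the controls and at 52.4, 55.2 and 56.03 CPM with gRNA1 (1.48-fold, 95% interval 1.38 to 1.59). It was also higher with gRNA1 than with gRNA2 (1.32-fold, adjusted p = 0.000209). NEO1, a netrin receptor, and PLXNB1, a semaphorin receptor, were lower at 0.773-fold and 0.745-fold, and PLXNA2 was higher at 2.29-fold. These 3 calls ended with the length offset. ROBO1, a receptor of SLIT2, was at 1.57-fold and not called.

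Among growth factors and cytokines, single genes moved against families that mostly did not. The VEGF, PDGF and angiopoietin ligands had 2 of 11 higher and 0 lower. VEGFA, the main driver of vessel growth, went from 52.0, 51.0 and 52.6 CPM to 62.5, 62.6 and 67.8 CPM (1.24-fold, 95% interval 1.15 to 1.34). PDGFD was near the floor in the controls at 0.161, 0.407 and 0.322 CPM and reached 1.18, 1.15 and 0.886 CPM (3.47-fold, 2.07 to 5.84). The TGF-beta superfamily ligands had 2 higher and 1 lower of 16. INHBB, which codes for a chain of activin and inhibin, rose from 0.856, 0.733 and 0.736 CPM to 2.32, 2.56 and 1.63 CPM (2.81-fold, 1.96 to 4.03). TGFB1 was at 14.9, 14.4 and 12.9 CPM and at 8.18, 10.1 and 10.4 CPM (0.682-fold, 0.584 to 0.796), a call that ended with the length offset. Of 8 EGF-like ligands 1 rose and 2 fell (1 and 0 with the length offset), and EREG, which codes for a ligand of EGFR, was the one that rose, at 1.38-fold. IL24 was higher at 2.47-fold among 15 interleukins and related cytokines, of which 1 rose and 1 fell; its call ended with the length offset.

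Proteases and their inhibitors showed a few opposed changes. Of 9 matrix metalloproteinases and TIMPs 1 rose and 2 fell. The collagenase MMP13 stood at 13.2, 13.5 and 12.5 CPM in the controls and at 36.9, 35.5 and 38.9 CPM with gRNA1 (2.83-fold, 95% interval 2.53 to 3.18). With gRNA2 its mean was 17.6 CPM, and the guides differed 2.11-fold (adjusted p = 1.36e-06). TIMP2, an inhibitor of such enzymes, went from 315, 303 and 297 CPM to 252, 251 and 259 CPM (0.832-fold, 0.790 to 0.876). Among 31 trypsin-like serine proteases 2 rose and 2 fell. ST14, the membrane protease matriptase, fell to 0.800-fold and PRSS23 to 0.855-fold, while TMPRSS11E rose 1.6-fold.

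In the extracellular matrix families described here all calls but that of a collagen were decreases, beside 4.89% lower among all protein-coding genes. Of 17 lysyl oxidases, hydroxylases and peroxidasins, enzymes that crosslink or modify collagen, 5 fell and 0 rose. PXDN, peroxidasin, was at 4.28, 3.95 and 4.64 CPM and at 2.61, 2.31 and 2.07 CPM (0.544-fold, 95% interval 0.442 to 0.670). P3H2, a prolyl hydroxylase of collagen, was at 0.790-fold, a call that ended with the length offset. Of 33 laminins, nidogens, fibulins and related matrix proteins 7 fell and 0 rose. THBS1, thrombospondin, was at 0.821-fold with a call that ended with the length offset. With median scaling the laminin group had 1 higher and 3 lower, and with the length offset 0 and 3. VCAN, a large matrix proteoglycan, fell to 0.549-fold, again except with the length offset (adjusted p = 0.109). Of 15 proteoglycans 0 rose and 2 fell, and with median scaling 1 and 1. Of 17 collagens 1 rose and 0 fell.

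A pair of complement regulators moved in opposite directions. CFI, the secreted protease that inactivates complement fragments, stood at 5.72, 5.25 and 5.15 CPM in the controls and at 9.91, 10.7 and 9.60 CPM with gRNA1 (1.88-fold, 95% interval 1.6 to 2.2). CD59, which blocks the membrane attack complex on the cell surface, went from 302, 302 and 306 CPM to 263, 258 and 253 CPM (0.850-fold, 0.811 to 0.890). In the wider list of 24 complement genes and regulators 2 rose and 3 fell. Of the 31-mers of the CFI transcripts, 34.8% also occur in transcripts of other genes, so its reads can be split with these.

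Genes of cell surface proteins had the same mixture. The surface families as a whole had 57 higher and 82 lower of 1142 genes tested (12.2% called), the secreted families 30 and 38 of 351 (19.4%) and the intracellular families 62 and 99 of 1426 (11.3%), beside 8.55% of all protein-coding genes. As the lists were drawn up with earlier results of these data known, shares above 8.55% cannot be read as a result about these classes. With median scaling the direction turned in all 3, to 63 and 47, 36 and 29, and 77 and 47, and so it did within chromosomes. PTPRG, a receptor tyrosine phosphatase, went from 43.7, 48.2 and 46.6 CPM in the controls to 28.6, 27.9 and 28.7 CPM with gRNA1 (0.614-fold, 95% interval 0.570 to 0.662). It was also lower than with gRNA2, where the mean was 39.5 CPM (adjusted p = 0.000107). In the receptor tyrosine phosphatases 1 rose and 2 fell of 13, with PTPRB at 1.58-fold and its call lost with the length offset. PTPN13, a phosphatase of the cytoplasm, rose 2.91-fold, also with its call lost under that offset.

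Adhesion and junction genes moved singly. TSPAN12, a tetraspanin that takes part in norrin and frizzled signalling, went from 1.77, 2.32 and 2.25 CPM to 8.33, 7.77 and 6.99 CPM, and was the one riser among 21 tetraspanins, of which 2 fell, but 0 with either added scaling or the length offset. PCDH7, a protocadherin, went from 7.01, 7.45 and 9.06 CPM to 20.2, 22.1 and 18.2 CPM (2.57-fold, 95% interval 2.21 to 2.99). The other 56 of the 57 protocadherins tested held 1 further call. CDH5, the cadherin of endothelial cells, rose 3.19-fold from 0.858 ± 0.372 to 2.69 ± 0.334 CPM (SD, n = 3). GJA1, the gap junction protein connexin 43, stood at 7.76, 7.33 and 7.17 CPM and at 17.9, 15.1 and 13.7 CPM (2.10-fold, 1.8 to 2.45). OCLN, occludin of the tight junction, fell from 145, 144 and 147 CPM to 118, 114 and 113 CPM (0.790-fold, 0.748 to 0.835). Of 18 claudins and other tight junction membrane proteins 1 rose and 3 fell. In the integrins, 1 rose and 3 fell of 23: ITGA2, a chain of a collagen receptor, was at 0.832-fold and ITGB6 at 1.51-fold, the latter without a call under the length offset.

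Molecules of the immunoglobulin type had 2 higher and 6 lower of 40, where 8.55% of all protein-coding genes were called. MCAM, the adhesion molecule CD146, went from 39.9, 36.5 and 35.8 CPM to 28.1, 28.4 and 27.6 CPM (0.751-fold, 95% interval 0.681 to 0.829). PVR, the poliovirus receptor and a ligand of immune receptors, was at 0.859-fold. VTCN1, the immune checkpoint ligand B7-H4, rose from 6.31, 7.01 and 6.16 CPM to 9.71, 9.18 and 9.75 CPM (1.47-fold, 1.27 to 1.69). TNFRSF21, a death receptor, was at 135, 135.6 and 133.7 CPM and at 109, 115.5 and 103.7 CPM (0.812-fold, 0.763 to 0.863), in a group of 27 TNF ligands and receptors with 3 lower and 0 higher.

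**Figure D4:**
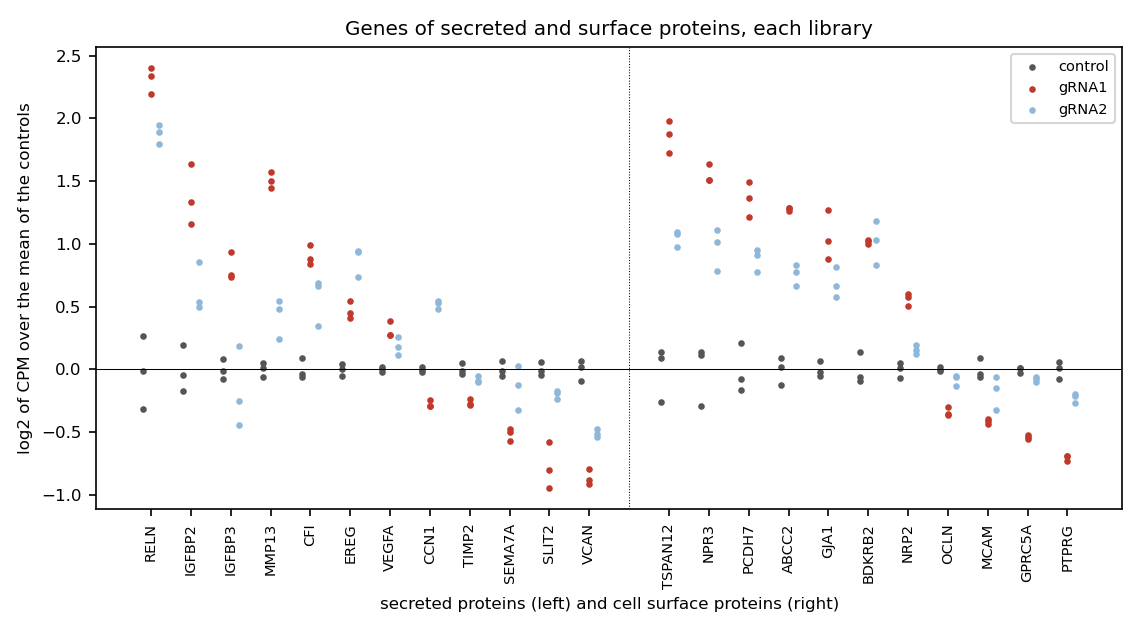
For 23 genes the y axis gives log2 of CPM over the mean of the 3 controls and each point is 1 library, with secreted proteins to the left of the dotted line and surface proteins to the right. In each gene the red gRNA1 points lie clear of the grey control points, while the blue gRNA2 points lie between them for most genes, beyond gRNA1 for EREG, and on the other side of the controls for CCN1. For IGFBP3, which rose with gRNA1, the mean of gRNA2 lies below the 3 controls.

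Receptors that signal through G proteins had 4 higher and 6 lower of 72, outside the adhesion class. Of all protein-coding genes 8.55% were called. GPRC5A, a retinoic acid-induced receptor studied in lung epithelium, stood at 660, 661 and 642 CPM in the controls and at 456, 450 and 446 CPM with gRNA1 (0.689-fold, 95% interval 0.659 to 0.720, edgeR adjusted p = 1.35e-07). With gRNA2 its mean was 620 CPM, and the guides differed (adjusted p = 7.06e-07). BDKRB2, the bradykinin receptor, rose from 4.92, 4.28 and 4.18 CPM to 9.07, 8.92 and 9.11 CPM (2.03-fold, 1.73 to 2.39). The protease-activated receptor F2RL1 was at 0.802-fold. In the adhesion class 2 of 17 rose and 3 fell (2 and 1 with median scaling), and neighbours of a single subfamily went apart: ADGRF4 fell to 0.702-fold, while ADGRF1 and ADGRF5 rose 1.31-fold and 2.53-fold, both calls lost with the length offset. FZD5, a receptor of WNT ligands, rose 1.26-fold. NPR3, the clearance receptor of natriuretic peptides, went from 1.77, 1.79 and 1.33 CPM to 4.63, 5.08 and 4.63 CPM (2.93-fold, 2.33 to 3.68). STRA6, the receptor for the vitamin A carrier, rose 2.68-fold.

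Transporters held both large rises and small falls. Of 36 ABC transporters 5 rose and 2 fell, and with scaling within chromosomes 5 and 0. ABCC2, which exports conjugated drugs and bilirubin, stood at 13.6, 15.1 and 15.8 CPM and at 36.2, 36.2 and 35.5 CPM (2.42-fold, 95% interval 2.19 to 2.67). Its relatives ABCC9 and ABCC3 each rose 1.29-fold, whereas ABCC1 and ABCC4 were at 0.98-fold and 1.04-fold and not called. ABCA12, a lipid transporter of the epidermis, went from 0.696, 0.937 and 0.828 CPM to 2.86, 4.01 and 3.74 CPM. Of 258 solute carriers 14 rose and 17 fell (12% called, beside 8.55% of all protein-coding genes), a direction that turned with median scaling (17 and 10) and within chromosomes (14 and 8), while the length offset gave 5 and 5. SLC5A3, which brings myo-inositol into the cell, was at 218, 226 and 225 CPM in the controls and at 328, 328 and 291 CPM with gRNA1 (1.42-fold, 1.32 to 1.52), with a mean of 177 CPM for gRNA2. SLC28A3, a nucleoside carrier, rose 1.71-fold, and SLC44A2, a choline transporter-like protein, fell from 181, 177 and 174 CPM to 136.4, 133.2 and 133.9 CPM (0.758-fold, 0.711 to 0.809). Of 33 P-type ATPases 3 rose and 6 fell, with median scaling 4 and 2, among them ATP9B at 1.23-fold and the Golgi calcium and manganese pump ATP2C1 at 0.850-fold. Of 44 potassium channels 4 rose and 0 fell, with KCNS3 at 2.10-fold and KCNJ15 at 1.24-fold.

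Inside the cell, large rises were seen in single genes of the membrane skeleton and of the control of small GTPases. SPTB, the beta spectrin of red cells, stood at 18.7, 15.97 and 16.96 CPM in the controls and at 47.0, 49.0 and 48.8 CPM with gRNA1 (2.81-fold, 95% interval 2.57 to 3.08, edgeR adjusted p = 1.52e-08). Other spectrins were looked at after their values were seen: SPTAN1 and SPTBN1, which are far more abundant, were at 0.904-fold and 0.914-fold. Both were called, but SPTAN1 not without control replicate 1 or either of gRNA1 replicates 1 and 2 (adjusted p up to 0.0728) or within chromosomes, and SPTBN1 not without control replicate 1 or 2 or gRNA1 replicate 1 or 2 (up to 0.103), with the length offset (0.181) or with median scaling. DOCK11, an activator of CDC42, went from 8.93, 10.3 and 10.6 CPM to 23.7, 22.8 and 22.01 CPM (2.29-fold, 2.05 to 2.55), and VAV3, another activator of small GTPases, rose 2.33-fold. In their family of 78 genes 6 rose and 4 fell. RAPGEF5, an activator of RAP proteins, went from 3.10, 3.83 and 4.69 CPM to 11.4, 11.8 and 11.7 CPM (2.98-fold, 2.51 to 3.55). The kinase SYK went from 3.798, 3.87 and 4.05 CPM to 9.31, 9.99 and 9.80 CPM (2.48-fold, 2.13 to 2.90), and TNIK, a kinase of the WNT pathway, rose 2.76-fold. The GTPase RHOU was at 1.49-fold and RGS6, a brake on G protein signals, at 1.99-fold. Of 34 actin-binding proteins of the cell edge 2 rose and 8 fell, with MYLK, the kinase of myosin light chains, at 0.824-fold and TPM1, a tropomyosin, at 0.866-fold. The TPM1 call ended with the length offset, and with median scaling the group had 4 higher and 4 lower.

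Families of transcription factors held calls in both directions. Of 17 ETS factors 2 rose and 4 fell (35.3% called, beside 8.55% of all protein-coding genes), but with median scaling 2 and 2, within chromosomes 2 and 0, and with the length offset 1 and 0. Of 18 KLF and SP factors 0 rose and 4 fell, with median scaling 2 and 3, within chromosomes 1 and 2, and with the length offset 0 and 1. Of 54 homeobox genes outside the HOX clusters 4 rose and 2 fell. All 3 Iroquois genes tested were among the risers. IRX3 stood at 0.910, 0.978 and 1.01 CPM in the controls and at 2.56, 2.69 and 2.61 CPM with gRNA1 (2.70-fold, 95% interval 1.96 to 3.71). IRX2 was at 0.910, 0.774 and 0.874 CPM and at 2.46, 2.01 and 2.36 CPM (2.67-fold, 1.93 to 3.68), and IRX5, a neighbour of IRX3 on chromosome 16, was at 1.83-fold with a call that ended under the length offset. None of the 13 HOX genes tested was called by edgeR, but 1 was with the length offset. HAGLR, an antisense transcript of the HOXD cluster, rose from 1.61, 1.63 and 1.89 CPM to 6.01, 5.68 and 5.91 CPM (3.42-fold, 2.78 to 4.23). Of 8 SOX genes 2 rose: SOX2, at 1.02, 0.692 and 1.01 CPM and at 3.45, 3.37 and 4.09 CPM, and SOX4, at 1.15-fold, whose call ended without control replicate 1, control replicate 2, gRNA1 replicate 1 or gRNA1 replicate 2 (adjusted p up to 0.106) and with the length offset (0.203). NFE2L3, a bZIP factor, went from 77.4, 81.7 and 79.0 CPM to 60.3, 56.7 and 56.4 CPM (0.728-fold, 0.682 to 0.778). In its group of 41 AP-1, ATF and CREB factors 2 rose and 7 fell (22%), with the length offset 1 and 1. The membrane-bound factors CREB3L2 and CREB3L1 went apart, at 1.14-fold and 0.780-fold, and the second call ended with the length offset. KLF6, a zinc finger factor, fell to 0.840-fold and ELF3, an epithelial ETS factor, rose 1.35-fold.

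Enzymes of the Golgi that build sugar chains had 4 higher and 14 lower of 97, which turned to 6 and 5 with median scaling and to 4 and 2 with the length offset. The risers with the lowest p were sialyltransferases. ST3GAL5, which makes the ganglioside GM3, went from 7.86, 8.43 and 7.31 CPM to 13.95, 12.3 and 13 CPM (1.66-fold, 95% interval 1.46 to 1.88), and ST3GAL1 rose 1.49-fold. B3GNT7 was at 1.55-fold, and CHST3, a sulfotransferase of chondroitin, fell from 67.5, 64.9 and 62.3 CPM to 51.9, 50.04 and 51.9 CPM (0.790-fold, 0.735 to 0.851). Of 28 cytochrome P450 genes 4 rose and 1 fell, led by CYP1B1, which oxidises steroids and aromatic compounds, from 51.0, 52.8 and 53.5 CPM to 90.7, 83.6 and 77.01 CPM (1.6-fold, 1.46 to 1.75). MAOA, a mitochondrial amine oxidase, rose 3.43-fold, SCD, the stearoyl-CoA desaturase, fell to 0.826-fold, and MBOAT7, a phospholipid acyltransferase, fell to 0.636-fold.

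Some families showed no calls by edgeR with the main scaling at this depth. Of the 89 families with at least 8 genes tested, 5 had none: 8 FGF ligands, 13 HOX genes, 10 chemokines, 13 ephrins and Eph receptors, and 17 tubulins. At an unadjusted p under 0.05, 7 of the HOX genes, 5 of the tubulins, 2 of the chemokines, 2 of the ephrins and Eph receptors and 0 of the FGF ligands passed, and DESeq2 called 1 tubulin (TUBB3, named after its values were seen) and no gene of the other families. With edgeR, 1 tubulin was called lower when chromosomes were scaled apart and 1 HOX gene with the length offset, so the absence of a call is not the absence of a change. Of the 177 genes named TMEM, 7 were called.

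Noncoding genes had fewer calls, and nearly all of these were increases. Of 1705 long intergenic RNAs 75 rose and 3 fell (4.57% called), and of 1384 antisense genes 35 rose and 3 fell (2.75%). Processed pseudogenes had 8 higher and 0 lower of 601. The median change of all long intergenic RNAs tested was 0.14 on the log2 scale, which is that of weakly expressed genes in general. Whether the counting used the strand is not given in the sources used here, so reads of an antisense gene and its partner cannot be told apart.

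Single transcripts were compared by their share of the TPM of their gene (a value per library that allows for transcript length). Of 52477 transcripts of 9247 genes, 651 were called (1.24%) by limma's test of differential use at an adjusted p of 0.05. In 126 of them the groups did not overlap and the share moved by at least 10 percentage points, 51 gaining and 75 losing. Of those 126, 47 were also called by edgeR on the estimated reads of the transcripts, and 51 rested on fewer than 20 reads a library. A switch was defined as a gene in which 1 such transcript gained and another lost, and 13 genes met it (0.141%). Of these 13, 2 were genes that changed in total, CPA4 and SEMA4G, at 0.75-fold and 0.78-fold. The CPA4 call as a gene ended with the length offset. The SEMA4G call also ended without control replicate 1 or either of gRNA1 replicates 1 and 2 (adjusted p up to 0.0749). With edgeR on reads 2 switch genes were left, and other settings gave between 10 and 24.

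Some switches had reads on both transcripts in every library. In SNAPC2, a subunit of the complex that starts transcription of small nuclear RNA genes, the transcript SNAPC2-201 held 47.3%, 42.4% and 55.3% of the gene in the controls and 69.1%, 76.8% and 72.4% with gRNA1. SNAPC2-206 held 40.7%, 55.4% and 42.4% and then 22.3%, 19.5% and 25.6%. Both code for protein, and the total was not called, at 0.91-fold. In CCDC51, CCDC51-202 held 39.6%, 41.6% and 32.3% and then 59.1%, 72.0% and 56.5%, at the expense of CCDC51-201. In SCML1, SCML1-204 went from 3.5%, 3.1% and 2.8% to 18.9%, 17.1% and 16.7%. With gRNA2 the share of SCML1-204 was 13.8%, 32.1% and 14.4%.

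Several switches rest on transcripts that are listed at 0 in a whole group. MND1, which works in the exchange of DNA strands during meiosis, had MND1-203 listed at 0 in the controls and at 24.8%, 12.4% and 17.6% with gRNA1, on 33, 17 and 19 estimated reads. CPA4, a secreted carboxypeptidase, had CPA4-209 at 23.9%, 27.7% and 30.7% in the controls and listed at 0 with gRNA1. In CARD10, CARD10-201 stood at 28.1%, 26% and 66.9% in the controls and was listed at 0 with gRNA1, so that 1 control stands apart. In RAB43, RAB43-208 stood at 18.5%, 17.2% and 35.8% in the controls, on 11.1, 12.4 and 25.1 estimated reads, and was listed at 0 with gRNA1. RAB43-201 held 77.8%, 73.8% and 43.5% in the controls and 83.5%, 90.9% and 95.3% with gRNA1. Such zeros can be a choice of the estimate between transcripts that share most of their bases. Of the 31-mers of CARD10-201, 0.564% occur in no other transcript, and of SNAPC2-201 4.70%. For RAB43-201 and RAB43-208 the share is 0% each, so no stretch of that length tells either from all other transcripts.

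The stretches below are parts of coding sequence that tell 1 transcript from all others in GENCODE 29, and are shown for 3 switches because the reads that tell the isoforms apart must come from such bases. They are written from the 5′ end, and capitals mark the bases shared by all the 31-mers of the stretch that occur in no other transcript. They are bases 52 to 101 of the 1542 of SNAPC2-201, 479 to 537 of the 638 of MND1-203 and 477 to 532 of the 535 of CPA4-209.
SNAPC2-201: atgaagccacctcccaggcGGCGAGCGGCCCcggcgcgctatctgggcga
MND1-203: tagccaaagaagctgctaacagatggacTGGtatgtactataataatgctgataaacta
CPA4-209: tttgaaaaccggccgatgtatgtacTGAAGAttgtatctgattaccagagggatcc
The stretch of SNAPC2-201 belongs to a form whose share of its gene grew, that of MND1-203 belongs to a form that gained, and that of CPA4-209 to a form that was lost.

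**Figure D5:**
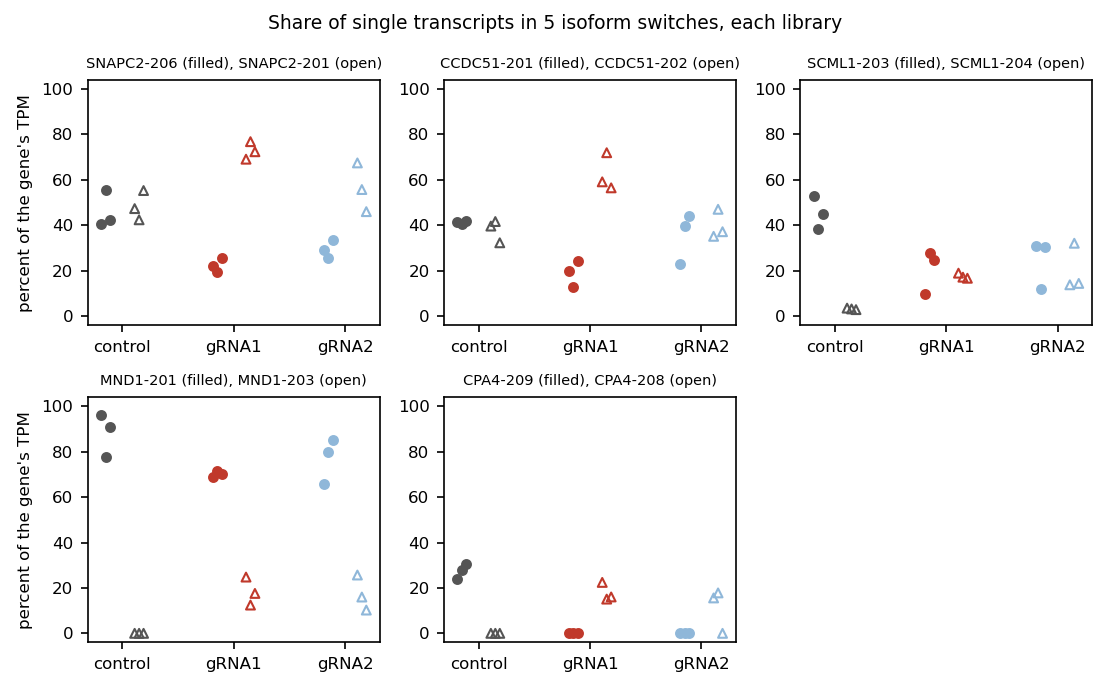
For 5 genes the y axis gives the percent of the TPM of the gene that a transcript held, by group, with filled circles for the transcript that lost and open triangles for the one that gained; each mark is 1 library. The control and gRNA1 marks of a transcript do not overlap in any panel, and the gRNA2 marks lie with gRNA1 for CPA4-209.

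Genes annotated as readthrough join 2 neighbouring genes in 1 transcript. Of 71 tested, 2 were higher and 3 lower (7.04% called, beside 7.08% of all genes tested). The genes named here were chosen after their values were seen. TNFSF12-TNFSF13 had 0 reads in each control and 17, 12 and 13 estimated reads with gRNA1, with a mean of 0 for gRNA2. The call of BIVM-ERCC5 ended without any 1 of the libraries but gRNA1 replicate 3 (adjusted p up to 0.0792), and that of ISY1-RAB43 without any but gRNA1 replicate 2 (up to 0.13). COMMD3-BMI1 was not called without control replicate 1 or 3 or gRNA1 replicate 1 or 2 (up to 0.113). All 3 calls also ended with the length offset, and that of ISY1-RAB43 with DESeq2 and within chromosomes. Of the 31-mers of the 5 genes called, between 94.7% and 99.4% also occur in transcripts of other genes, so how their reads were split with the parent genes is uncertain.

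A TATA box stood in 13.2% of the promoters of genes that rose and in 6.17% of all promoters, a description with no test. A promoter of RefSeq, from 250 bases before to 50 after the start in GRCh38.p14, was matched by symbol to 11079 of the protein-coding genes tested (79.0%). The letters TATAAA, on either strand and anywhere in the window, were searched in the 417 promoters of genes that rose and the 544 of genes that fell; they were found in 7.72% of the latter and in 15.3% of the 59 of genes that rose at least 2-fold. The E-box CACGTG was found in 9.74% of all, 7.43% of those that rose and 9.74% of those that fell, and CCAAT in 36.7%, 34.8% and 36.2%. TGANTCA, the AP-1 site, was in 4.69%, 6.24% and 4.41%. TGATGNAA, the ATF4 composite site, was in 1.82%, 1.68% and 3.31%, and TCACNCCAC, a sterol element, in 1.09%, 0.719% and 2.57%. The median number of CpG dinucleotides in the window was 26 for all promoters, 22 for genes that rose, 28 for genes that fell and 19 for genes that rose at least 2-fold. A match describes the letters of the window and shows no use of the site.

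The promoters of 4 genes that rose are printed to show this range, on the strand of the gene with TATAAA, or its reverse complement, in capitals. They lie at chr7:103989609-103989908 (RELN, minus strand), chr2:215138577-215138876 (ABCA12, minus strand), chr14:64879858-64880157 (SPTB, minus strand) and chr4:6693628-6693927 (S100P, plus strand).
RELN: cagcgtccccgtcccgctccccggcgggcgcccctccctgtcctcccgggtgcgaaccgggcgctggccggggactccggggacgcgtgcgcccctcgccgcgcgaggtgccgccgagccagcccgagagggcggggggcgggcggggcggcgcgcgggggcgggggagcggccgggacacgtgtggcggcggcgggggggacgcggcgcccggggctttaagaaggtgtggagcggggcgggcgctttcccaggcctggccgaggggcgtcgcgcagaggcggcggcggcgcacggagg
ABCA12: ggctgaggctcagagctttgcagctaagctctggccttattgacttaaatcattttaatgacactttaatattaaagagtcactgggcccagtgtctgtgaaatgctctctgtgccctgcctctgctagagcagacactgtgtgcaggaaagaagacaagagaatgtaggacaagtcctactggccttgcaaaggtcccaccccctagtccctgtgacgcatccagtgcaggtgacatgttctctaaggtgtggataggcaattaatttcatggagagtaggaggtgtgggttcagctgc
SPTB: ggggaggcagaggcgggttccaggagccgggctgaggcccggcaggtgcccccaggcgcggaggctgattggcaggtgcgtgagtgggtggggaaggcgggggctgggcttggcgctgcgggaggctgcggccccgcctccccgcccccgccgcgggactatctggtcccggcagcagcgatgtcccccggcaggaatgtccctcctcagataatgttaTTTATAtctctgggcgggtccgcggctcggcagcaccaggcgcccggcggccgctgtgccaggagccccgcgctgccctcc
S100P: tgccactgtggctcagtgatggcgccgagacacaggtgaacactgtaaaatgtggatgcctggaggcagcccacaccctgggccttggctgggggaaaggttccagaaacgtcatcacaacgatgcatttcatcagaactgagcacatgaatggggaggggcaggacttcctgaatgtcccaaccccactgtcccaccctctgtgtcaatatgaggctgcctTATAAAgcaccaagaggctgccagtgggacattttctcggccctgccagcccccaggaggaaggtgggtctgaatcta
The RELN window holds 52 CpG dinucleotides and the ABCA12 window 1, a wide range among genes that rose over 2-fold. SPTB has the box 31 bases and S100P 28 bases before the start. S100P, a calcium-binding protein that can be secreted, was at 1.07, 1.26 and 1.38 CPM in the controls and at 2.71, 2.90 and 2.76 CPM with gRNA1 (2.24-fold, 95% interval 1.74 to 2.88), and was the one S100 gene called of 9, against 3 with median scaling.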

How the data were processed

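Total RNA depleted of ribosomal RNA was sequenced. Per the submitters' processing notes the authors used Salmon 1.4.0 and hg38; the transcript set and the strand setting are not given in the sources used here. The deposited tables hold an estimated count of reads and a TPM value per transcript, per the file headers. Each lists 211939 transcripts, of which 95.7% matched GENCODE 29 by identifier. Estimated counts were summed to 56823 genes and rounded, and 1.26% to 1.33% of the reads on unmatched transcripts were left out. Symbols were found for 99.1% of the genes.

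Groups followed the titles. With edgeR 4.0.16 in R 4.3.3, low genes were removed by filterByExpr, libraries were scaled by TMM, and gRNA1 compared with the control and with gRNA2 by quasi-likelihood F tests, two-sided, in 1 fit of all 9 libraries, with Benjamini-Hochberg adjustment over 19658 genes at 0.05. Log2 changes and 95% intervals are of that fit. CPM use the TMM-scaled library sizes, except for the sums of cell type markers, which use the unscaled totals. Transcripts of at least 1 TPM in 3 libraries, in genes of at least 5 TPM, were tested with diffSplice of limma 3.58.1 on log2(TPM + 0.1). Both tests were tested on simulated data with known changes. Alternatives were DESeq2 1.42.0, RLE scaling, no filter, a replicate block, the 6 libraries alone, a transcript length offset, leaving out each library and, added after the data were seen, median scaling and scaling within each chromosome.

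Protein classes used the mean hydropathy of windows of 19 residues (at least 1.6) after residue 40 and of 10 residues (at least 2) within the first 30, in GENCODE 29 reading frames. Families were defined by patterns of symbols. The members and lists were chosen with earlier results of these data known. Genes named are the target, the 25 highest and 25 lowest called genes with a log2 CPM of at least 1 and groups that do not overlap, up to 4 called members of a family with the lowest p, other measured relatives of leading genes, the 5 most abundant called genes in each direction and the 12 largest switches; exceptions are stated, and some genes and transcripts under the rule are not reported here. Shared sequence was counted over 31-mers of GENCODE 29 transcripts. Python 3.11.15, pandas 2.3.3, numpy 2.4.6 and matplotlib 3.10.9 were used.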

Additional observations from a re-analysis of the deposited data

How the results depend on the processing

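Of 1391 genes called, 316 were called under every alternative that gave them an adjusted p. A reversed direction was looked for only in genes named in the text, and 0 of the 121 called ones were reversed. The count was 1205 with DESeq2, 1352 with RLE scaling, 2041 of 35716 genes without a filter on low counts, 1498 with the 6 libraries alone, 538 with the transcript length offset, 1200 with scaling within each chromosome and 1263 with median scaling, and it ran from 654 to 1024 when 1 library was left out, which leaves fewer libraries to test. Calls of at least 2-fold numbered 39 with DESeq2, 271 without the filter and between 80 and 93 with 1 library left out. Deviations of same-numbered libraries had correlations of −0.14, 0.12 and 0.07, and those of differently numbered ones ran from −0.288 to 0.198. With 3 libraries a group this cannot decide whether the numbers pair the libraries, and the labels do not say. A replicate block gave 1264 genes called, 94 of them at least 2-fold, and 661 transcripts. The target RNA was then at −0.42 on the log2 scale. The target RNA ran from −0.51 to −0.34 with 1 library left out and to −0.72 with the length offset, never past the threshold. Transcripts called numbered 442 with a pseudocount of 1, 856 with a lower filter, 240 by edgeR on reads and 607 to 684 with 1 library left out. Switch genes numbered 2 by edgeR on reads and 19 to 24 with 1 library left out, of which between 7 and 9 were among the 13. The cause of these moves was not tested. Depth limits the weakly expressed genes: under a log2 CPM of 1 no fold below 1.61 was called.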

Other observations

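Genes outside the families were also among the largest changes. C1orf21, a gene of little known function, stood at 2.41, 3.34 and 3.08 CPM in the controls and at 9.17, 9.09 and 8.17 CPM with gRNA1 (2.96-fold, 95% interval 2.41 to 3.65). CAPN8, a calpain protease of the digestive tract, went from 3.53, 4.64 and 3.68 CPM to 9.26, 9.86 and 9.06 CPM (2.36-fold, 1.99 to 2.81). ENTREP1 was at 6.58, 6.84 and 5.66 CPM and at 15.4, 14.5 and 16.3 CPM, with a mean of 15.2 CPM for gRNA2 and no call between the guides (1.01-fold, adjusted p = 0.938). SH3BGRL2 rose 2.25-fold, and RP1, a microtubule protein of photoreceptors, 3.19-fold, a call that ended with the transcript length offset.

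On the lower side, CALB1, a calcium-binding protein, was at 2.62, 2.04 and 2.30 CPM in the controls and at 1.18, 1.28 and 1.33 CPM with gRNA1, while its mean for gRNA2 was 2.26 CPM and the guides differed (adjusted p = 0.0151). CCDC3 fell to 0.678-fold from 13.2, 11.1 and 11.6 CPM to 8.13, 7.77 and 8.37 CPM, and ZNF582-DT, a noncoding RNA, to 0.67-fold. TNFAIP3, the NF-kB inhibitor A20, was lower at 0.66-fold, with its call lost under the length offset.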
